A study of Homo sapiens with 47 samples.

Results

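The numbered zinc finger genes are human genes whose symbol is ZNF, a number and at most 1 closing letter. They were taken from the UMI counts of 47 single HEK293 cells, and a gene was a member if its counts summed over the cells reached 20. Of 410 rows with such a name 140 were members, among 9088 genes that reached 20 UMIs and 18651 gene rows in all. HEK293, an established line derived from human embryonic kidney, was grown here in DMEM with glutamine and 10% fetal calf serum without any treatment, which leaves 1 group of cells and no conditions to compare. Each sample is 1 cell, named below by the number in its label, and nothing in the labels says that cells came from more than 1 culture. Cells were lysed in microfluidic chambers together with ERCC spike-ins, synthetic RNAs added at 20000 molecules per cell, and the 5′ end of each cDNA received a random tag, the unique molecular identifier or UMI. As 1 tag stands for 1 transcript end, a count does not scale with the length of the transcript.

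Most of these genes encode C2H2 zinc finger proteins, in which a pair of cysteines and a pair of histidines hold a zinc ion and each finger of a tandem array can contact a few bases of DNA. Many also carry a KRAB box, a short domain that binds TRIM28, through which histone deacetylases, the methyltransferase SETDB1 and heterochromatin proteins are brought to the bound site. KRAB zinc finger proteins are known for silencing transposable elements. A smaller number of the genes carry a SCAN domain, which pairs such proteins with each other, and some have few or divergent fingers and act in ribosome assembly, RNA processing or mitosis.

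Promoter sequences help to place 4 members to which the results return. ZNF146 had the smallest index of dispersion, the measure of spread over cells defined below, among members with at least 100 UMIs. ZNF567 was among the 4 members whose spread over cells exceeded that of every spike-in. ZNF354A and ZNF354B are neighbouring paralogs with the highest correlation among neighbouring members, and were singled out after their values had been seen. The 250 bases before the annotated start are given 5′ to 3′ on the strand of the gene, from RefSeq on GRCh38.p14. They are chr19:36214856-36215105 on the plus strand for ZNF146, chr5:178730660-178730909 on the minus strand for ZNF354A, chr5:178859703-178859952 on the plus strand for ZNF354B and chr19:36666684-36666933 on the plus strand for ZNF567. Capitals mark the letters CCGGAAG, the core bound by ETS family activators, or ACTACA, any 2 bases and TCC, the core of the sequence bound by ZNF143, each searched on both strands.
ZNF146: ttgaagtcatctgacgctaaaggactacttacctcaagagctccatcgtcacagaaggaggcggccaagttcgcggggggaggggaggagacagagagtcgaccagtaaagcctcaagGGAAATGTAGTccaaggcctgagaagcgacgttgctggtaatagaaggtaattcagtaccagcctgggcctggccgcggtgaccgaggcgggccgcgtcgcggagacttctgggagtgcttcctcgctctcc
ZNF354A: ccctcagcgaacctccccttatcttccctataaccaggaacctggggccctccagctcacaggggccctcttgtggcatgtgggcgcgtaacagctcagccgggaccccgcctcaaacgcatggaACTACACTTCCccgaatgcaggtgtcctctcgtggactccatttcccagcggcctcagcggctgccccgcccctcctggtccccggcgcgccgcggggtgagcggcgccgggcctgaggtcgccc
ZNF354B: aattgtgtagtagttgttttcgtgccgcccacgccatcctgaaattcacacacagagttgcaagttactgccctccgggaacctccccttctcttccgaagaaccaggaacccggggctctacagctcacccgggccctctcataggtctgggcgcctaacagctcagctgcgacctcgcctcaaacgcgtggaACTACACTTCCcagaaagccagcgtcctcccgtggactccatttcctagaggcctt
ZNF567: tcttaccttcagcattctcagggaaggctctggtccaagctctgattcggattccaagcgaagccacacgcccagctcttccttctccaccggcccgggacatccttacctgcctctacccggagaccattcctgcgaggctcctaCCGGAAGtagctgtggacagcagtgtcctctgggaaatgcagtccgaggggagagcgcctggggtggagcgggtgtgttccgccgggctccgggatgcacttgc
The ZNF143 core lay 125 bases before the start in ZNF354A and 56 in ZNF354B, and the same letters ACTACACTTCC filled it in both, while in ZNF146 it stood on the opposite strand.

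Of the 140 members 121 had a promoter in the table. The ETS core was found in 37 of them (30.6%), in 30.4% of 224 rows of the same name pattern that stayed under 20 UMIs, in 18.4% of 6688 promoters of all genes with at least 20 UMIs and in 8.82% of all 27305 promoters. The ZNF143 core was found in 11 members (9.09%), against 13.8% of the rows under 20 UMIs, 4.49% of genes with at least 20 UMIs and 1.98% of all promoters. Both cores occurred together in ZNF277, ZNF268 and ZNF584, without overlap of their letters. Among members with a KRAB box 19 of 36 promoters (52.8%) held the ETS core, against 18 of 85 (21.2%) among members without one. ZNF143 itself, an activator of many housekeeping promoters, had 61 UMIs and carried the ETS core. The ratio of observed to expected CpG had a median of 0.817 in members, 0.852 in genes with at least 20 UMIs and 0.556 in all promoters. Promoters of paralogs share ancestry, so these shares describe sequences that are not independent of each other, and a match is not a binding site.

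A cell had 29325 to 138647 endogenous UMIs with a median of 59689, and 2919198 were counted in all, beside 166728 spike-in UMIs. The line's neuronal and epithelial transcripts were present: NEFM, a neurofilament subunit, summed to 462 UMIs, the neuronal hydrolase UCHL1 to 817 and the keratin KRT18 to 223. Of other cell types, the hepatocyte marker APOA1 had 4 UMIs and the collagens COL1A1 and COL1A2 had 12 and 1. Cell 52 stood apart, with 12.1% mitochondrial mRNA and 18.2% ribosomal protein mRNA, where the medians over cells were 3.11% and 25.98%. Several of the results that this cell could carry are given with and without it.

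The repertoire was wide and shallow. Of the 410 rows 15 had no UMI, 255 had 1 to 19, and 140 had 20 or more. A count of 0 over all cells allows a share of up to 0.000103% of endogenous UMIs, counted as 3 UMIs. The members held 9485 UMIs, 81.8% of what all 410 rows had, and 0.325% of all endogenous UMIs (95% exact binomial interval 0.318% to 0.332%, counting error only). Their totals had a median of 45 UMIs and ran to 589, and all genes with at least 20 UMIs had a median of 75. By total, 79 members had 20 to 49 UMIs, 40 had 50 to 99 and 21 had 100 or more. The 20 most abundant took 45.7% of the members' UMIs. If transcripts were counted as efficiently as spike-ins, of which 17.7% were recovered, the median member had 5.04 molecules per cell and the range was 2.07 to 69.6.

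At the threshold itself stood ZNF274, ZNF300, ZNF516, ZNF526 and ZNF787 with 20 UMIs each, in 10 to 13 cells. Just below it were ZNF112, ZNF16, ZNF169, ZNF48, ZNF585B, ZNF740, ZNF765 and ZNF780A with 19 UMIs each, in 9 to 13 cells. ZNF274 binds the coding ends of other zinc finger genes and recruits SETDB1 there, and it was detected in 13 cells.

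The 3 most abundant members had at most 1 finger motif each. ZNF593, the counterpart of a yeast factor of large ribosomal subunit maturation, had 2 UMIs in its lowest cell, 11 in the median cell and 31 in its highest, cell 48 (mean 12.5 ± 6.71, SD, n = 47 cells). ZNF703, a co-repressor of the NET family known as a breast cancer oncogene, had 0, 9 and 29 UMIs in the lowest, median and highest cell. ZNF706, a small protein with a single finger, had 1, 6 and 18. Only ZNF593 and ZNF706 were detected in all 47 cells, and ZNF703 was missed in 1. These 3 genes held 15.0% of the members' UMIs. The counts of ZNF706 overlapped those of the genes next in order, and the spreads of ZNF593 and ZNF703, which had means of 12.5 and 10.8 UMIs, overlapped widely.

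Next in order were 7 members with 201 to 252 UMIs, whose cell to cell ranges all overlapped. ZNF24, a SCAN protein that represses the angiogenic factor VEGFA, had 252 UMIs with a median of 4 and a highest cell of 14. ZNF271, which current annotation lists as the pseudogene ZNF271P, had 251 with a median of 5. ZNF207, a microtubule-binding protein that loads BUB3 onto kinetochores, had 240 and reached 14 in cells 38 and 48 but was missed in 7 cells. ZNF326, a subunit of a complex that couples RNA polymerase to splicing, had 235 UMIs with a highest count of 15. ZNF503, the NET family paralog of ZNF703, had 212 UMIs with a median of 3 and 23 in cell 50. ZNF146, a protein made almost entirely of fingers, had 204 UMIs with a median of 4. ZNF22, studied in tooth development, had 201, of which cell 39 alone held 21 and no other cell more than 11. The deep cells 43 and 62 held the highest count of 9 and 14 of the 140 members.

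**Figure D1:**
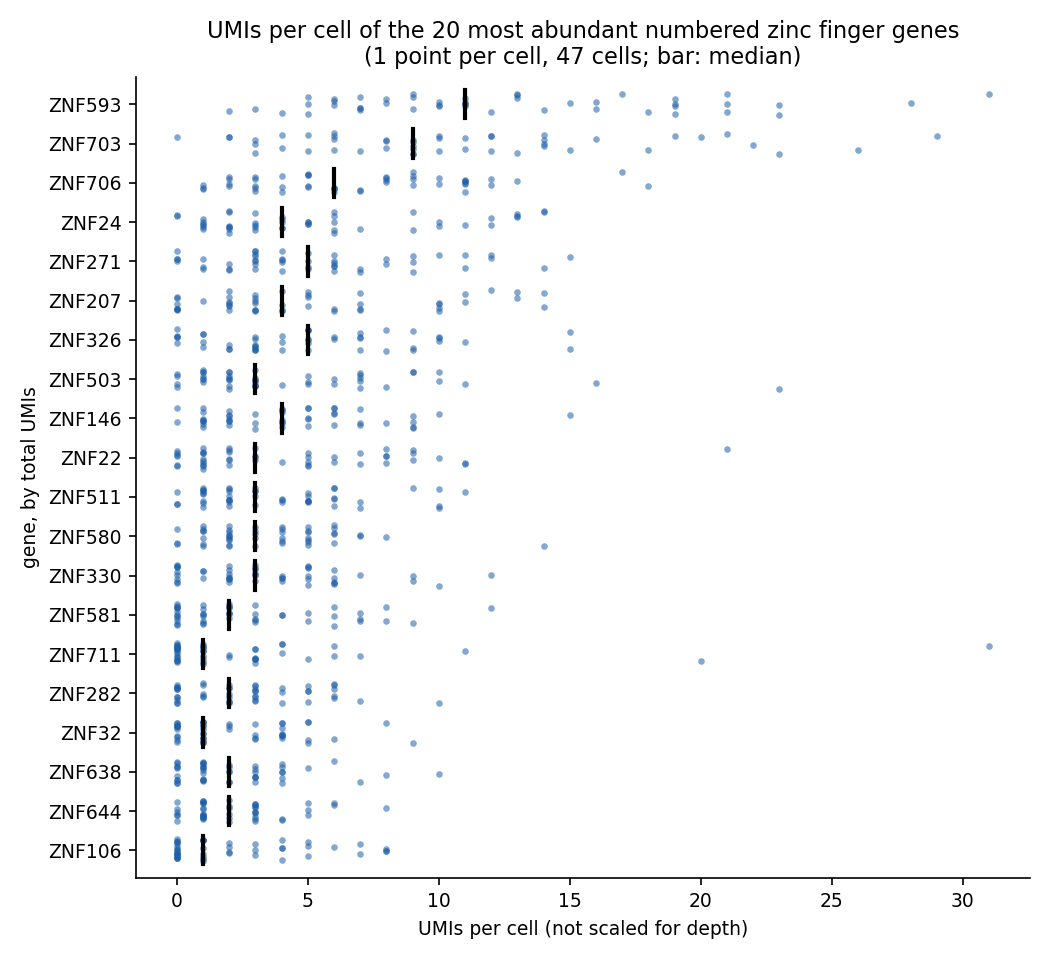
UMIs per cell, not scaled for depth, of the 20 most abundant members, with 1 point for each of 47 cells and a bar at the median, ordered by total from the top. ZNF593, ZNF703 and ZNF706 have medians of 11, 9 and 6, the genes below them have medians of 5 or less, and ZNF711 has 2 cells at 31 and 20 while its median is 1.

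The other 10 of the 20 had 101 to 178 UMIs. ZNF511, ZNF580 and ZNF330, the last a nucleolar protein, had medians of 3 UMIs per cell and were detected in 44, 44 and 38 cells. ZNF581, ZNF282, ZNF638 and ZNF644 had medians of 2. ZNF638 recruits the HUSH silencing complex to unintegrated retroviral DNA, and ZNF644 anchors the methyltransferases EHMT1 and EHMT2. ZNF711, ZNF32 and ZNF106 had medians of 1, and among the 20 ZNF711 and ZNF106 were found in the fewest cells, 29 each.

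Members of known role spread over the whole range of totals. In translation and ribosome assembly, ZNF622, a maturation factor of the large subunit, had 57 UMIs, and ZNF598, the ubiquitin ligase that marks collided ribosomes, had 24, against 589 for ZNF593. ZNF259, now named ZPR1, which binds the elongation factor eEF1A, had 101. Among DNA-binding factors of GC-rich promoters ZNF148 had 78 UMIs and ZNF281 had 70. ZNF217, a breast cancer amplicon gene that works with a histone demethylase complex, had 23. ZNF451, a SUMO ligase, had 45, ZNF346, which binds double-stranded RNA, had 59, and ZNF335, part of a histone methyltransferase complex, had 32. ZNF445, a guardian of imprinted loci, had 27. ZNF263 and ZNF131 had 64 and 60 UMIs. Below the threshold, ZNF10, whose KRAB box is used in repressor fusions, had 14 UMIs, ZNF91, which silences SVA elements, had 1, and ZNF462 had 13.

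Members with a KRAB box were fewer and less abundant than those without. Protein features were read from GENCODE coding sequences, found for 401 of the rows and 138 of the members. A KRAB box was found in 192 rows, of which 40 reached 20 UMIs (20.8%). Of the 209 rows without one 98 reached it (46.9%). The median total over all these rows was 9 UMIs with a KRAB box and 17 without. Among members the medians were 31.5 UMIs (20 to 78) with a KRAB box and 48.5 UMIs (20 to 589) without. No KRAB box was found in 19 of the 20 most abundant members, and the other, ZNF271, had no coding sequence. A looser pattern found one among them, in ZNF282 with 127 UMIs. The KRAB members held 16.03% of the members' UMIs and those without held 81.0%. The 2 distributions overlapped throughout the lower range, and the most abundant KRAB members were ZNF195 with 78 UMIs, ZNF738 with 74 and ZNF791 with 67. As the members were chosen by their totals, and paralogs share ancestry and may share reads, this is a description of levels without a test.

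**Figure D2:**
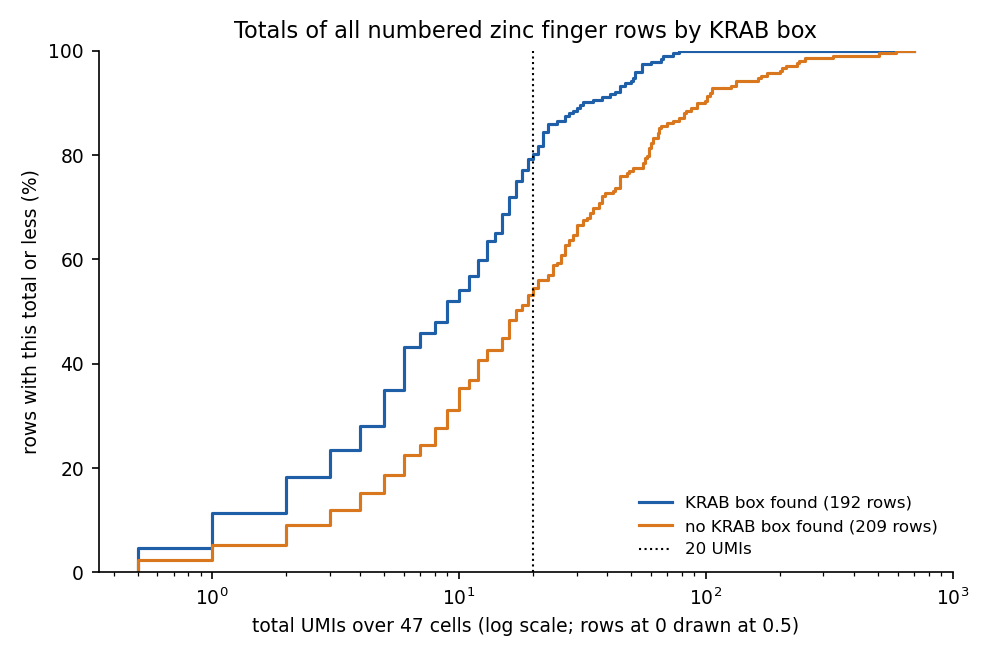
Cumulative share (%) of the rows with a KRAB box (192) and without one (209) against the total UMIs over 47 cells on a log axis, rows at 0 drawn at 0.5, with the threshold of 20 UMIs dotted. The curve of the KRAB rows lies above the other, with medians of 9 and 17 UMIs, and ends at 78 UMIs where the other runs to 589.

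The number of fingers followed the same order. It is not separate from the KRAB box, as KRAB members had a median of 12 motifs and members without one 6. The 2 features were not told apart, and paralogs may share reads here too. Of rows with 11 or more C2H2 motifs 40 of 189 reached 20 UMIs (21.2%), with 6 to 10 motifs 45 of 130 (34.6%), with 2 to 5 motifs 37 of 61 (60.7%) and with 0 or 1 motif 16 of 21 (76.2%). The members' median totals in these classes were 29, 45, 47 and 96.5 UMIs. Across members the Spearman correlation of total and motif number was -0.36 (n = 138 genes, which are not independent), and over all rows it was -0.29 (n = 401). The most motifs, 24, were in ZNF268, with 25 UMIs. No motif was found in ZNF703, ZNF503, ZNF330, ZNF259, ZNF738 and ZNF839, of which ZNF703 and ZNF503 keep a single atypical finger and ZNF738 had a KRAB box. A SCAN domain was found in 16 rows, of which 8 reached 20 UMIs, with ZNF24 at 252 and ZNF174 at 59 the highest. A looser pattern found it in 18 rows, among them ZNF263 with 64 UMIs.

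The other zinc finger families were smaller and no family held as many UMIs. Of 39 ZBTB rows, whose proteins pair fingers with a BTB domain, 20 reached 20 UMIs and summed to 750, led by ZBTB7A with 110. Of 12 ZFP rows 5 did so, of 14 ZSCAN rows 3, and of 6 ZKSCAN rows 2. All 29 listed partners of KRAB repression reached 20 UMIs, with a median of 204. TRIM28, the shared co-repressor, had 487 UMIs in all 47 cells, the methyltransferase SETDB1 had 57 in 27 cells and its cofactor ATF7IP had 25 in 15 cells. The heterochromatin protein gene CBX3 had 1324 UMIs, and the maintenance methyltransferase DNMT1 had 435. TRIM28 alone thus had more UMIs than any KRAB member, and the 40 KRAB members summed to 1520.

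Detection of single members was patchy. A cell had a UMI for 34 to 98 of the 140 members, with a median of 68. After each cell was thinned to 29325 UMIs, the smallest total, the expected number was 31.4 to 60.7 with a median of 49.3. In all 56 members were found in at least 24 of the 47 cells and 84 in fewer. For each member the number of cells expected was computed from its total spread in proportion to depth. Of 140 members 136 were found in fewer cells than that. The same count over all genes is not given here, so it cannot be read as particular to the members. The ratio of observed to expected cells had a median of 0.783 in members, 0.863 in all genes and 0.967 in spike-ins. Abundance differs between these sets, and within bands of totals the ratios were closer. At 20 to 49 UMIs they were 0.737, 0.772 and 0.785, at 50 to 99 UMIs 0.800, 0.824 and 0.816, and at 100 to 589 UMIs 0.911, 0.937 and 0.940 in members, all genes and spike-ins.

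**Figure D3:**
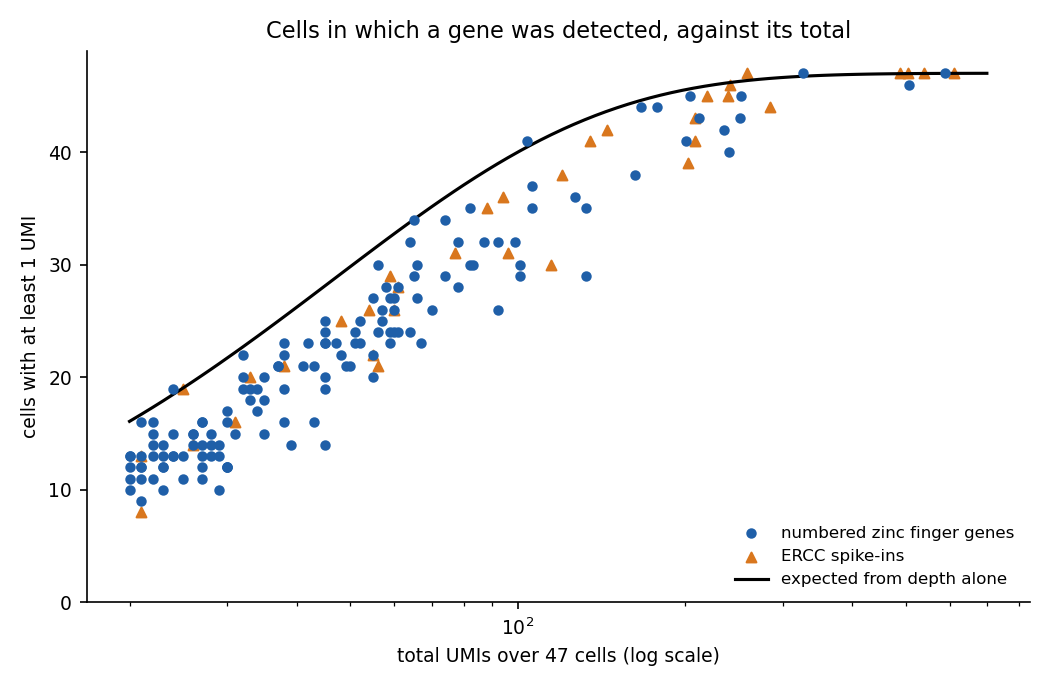
Number of cells with at least 1 UMI against total UMIs on a log axis for 140 members (circles) and for spike-ins of up to 700 UMIs (triangles), with the number expected from depth alone as a line. Nearly all members, 136 of 140, lie below the line, and all genes are not drawn. The line was drawn from endogenous totals, whereas the ratios of spike-ins in the text were computed from spike-in totals.

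Spread over cells was measured for each gene by an index of dispersion, which compares its counts with those expected if cells differed only in depth and is 1 under counting error alone. Members had a median index of 1.96 (0.985 to 7.22), all 9088 genes 2.00 and the 52 spike-ins with at least 20 UMIs 2.11 (0.757 to 3.97). Above the 95th percentile of spike-ins, 3.35, lay 11 members (7.86%), against 7.24% of all genes. Above the highest spike-in lay 4 members (2.86%), against 3.21% of all genes. Over all totals the members' shares were near those of all genes at both thresholds. Within bands of totals the shares above the highest spike-in differed more, and rested on few members. At 20 to 49 UMIs they were 3 of 79 members (3.80%) and 2.03% of all genes. At 50 to 99 UMIs they were 0 of 40 members and 0.975%, and at 100 to 589 UMIs 1 of 21 members and 2.17%. The threshold of 3.97 is the index of a single spike-in.

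The 4 members were ZNF711, ZNF627, ZNF567 and ZNF496. ZNF711, an X-linked partner of the histone demethylase PHF8 that is mutated in intellectual disability, had the largest index, 7.22. It had 31 UMIs in cell 62, 20 in cell 3 and 11 in cell 5, and 18 cells had 0. Depth alone would have given 5.25 UMIs in cell 62. The 7 cells with 5 or more UMIs held 86 of its 133 UMIs, while 22 cells with 1 to 4 held 47. Its index was 5.59 without cell 62 and 5.38 without cell 3, both above the highest spike-in.

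The other 3 rested on fewer UMIs and cells. ZNF627, a KRAB protein gene, was detected in 9 cells with 21 UMIs. Cell 2 held 10 of these and no other cell more than 2, and its index of 4.69 was 1.17 without cell 2. ZNF567, a KRAB protein gene with 43 UMIs in 16 cells, had 7 UMIs in cells 51 and 75 and 6 in cell 52. Its index was 4.61, and 3.78 without cell 52, its highest cell after scaling for depth, so it passed the highest spike-in only with that cell. ZNF496, whose protein binds the methyltransferase NSD1, had 45 UMIs in 14 cells, with 10 in cell 67 and 9 in cell 32. Its index was 4.32, and 3.49 without its highest cell. Only ZNF711 thus stayed above the highest spike-in of 3.97 when each of the 4 was computed without its highest cell after scaling for depth. With the spike-ins treated in the same way 3 members lay above the highest of them, a count for which no share over all genes is given.

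The next 6 were ZNF292, ZNF280B, ZNF174, ZNF672, ZNF324 and ZNF430, with indices of 3.89 to 3.42, all below the highest spike-in. ZNF174 had 12 of its 59 UMIs in cell 74, and its index of 3.56 was 1.96 without that cell. ZNF430 had 8 of 28 UMIs in cell 55. At the other end, the smallest indices among members with at least 100 UMIs were those of ZNF146 at 1.42, ZNF638 at 1.52, ZNF644 at 1.53, ZNF706 at 1.62 and ZNF703 at 1.67. The smallest index of any member was 0.985, for ZNF598 with 24 UMIs in 19 cells.

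**Figure D4:**
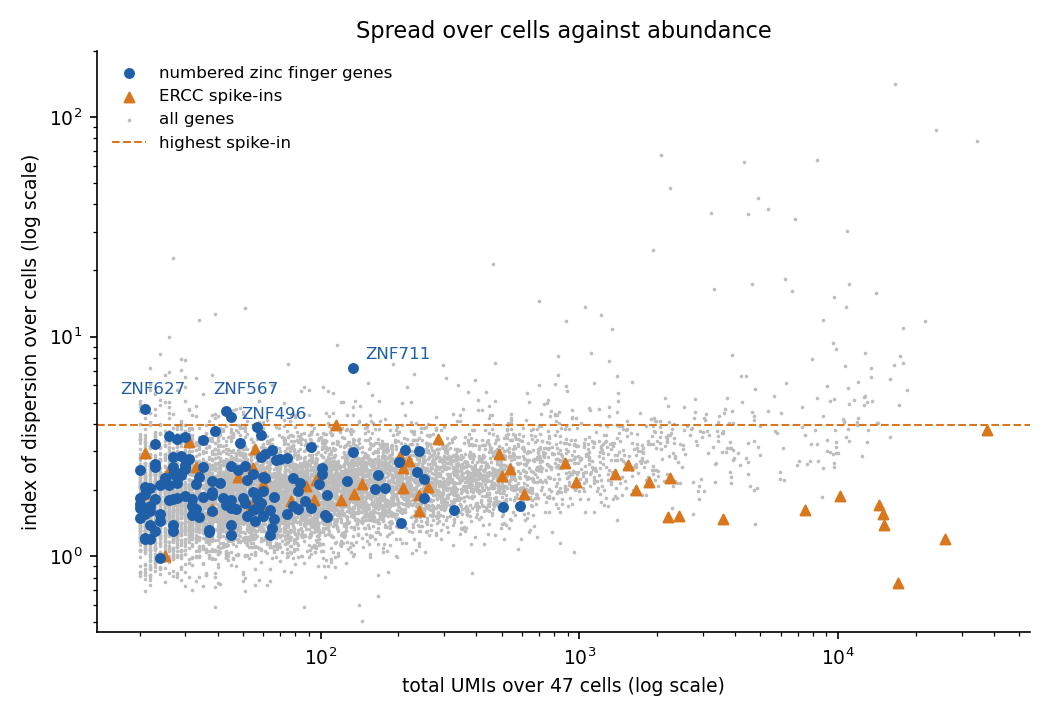
Index of dispersion over 47 cells against total UMIs, both on log axes, for 140 members (circles), 52 spike-ins (triangles) and all 9088 genes (small dots), with the highest spike-in index, 3.97, as a dashed line. The members lie within the cloud of all genes and only ZNF711, ZNF627, ZNF567 and ZNF496 are above the line.

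By class of protein as assigned by the motif search, the median index was 2.10 in KRAB members and 1.89 in those without. Their ranges, 1.2 to 4.69 and 0.985 to 7.22, overlapped almost wholly. Under the main, stricter and looser patterns, which miss degenerate domains, 2 members of each class were above the highest spike-in. The main pattern put 40 members in the KRAB class and 98 in the other. None of the 29 co-repressor partners was above the highest spike-in, and their median index was 1.87. Over all genes the share above it was 3.21%, and counts this small were not tested against that share. The 21 members with at least 100 UMIs had a median of 2.20, against 2.14 for the 2953 genes and 2.31 for the 15 spike-ins with 100 to 589 UMIs.

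Added up within a cell, the members made up 0.201% of endogenous UMIs in cell 23, 0.319% in the median cell, 0.452% in cell 80 and 0.520% in cell 52. The interval of cell 52 from counting error was 0.445% to 0.604%, so it reached down to cell 80. In cell 52 both the KRAB members, at 0.107%, and the members without a KRAB box, at 0.404%, had their highest share, and over cells the 2 sums had a Pearson correlation of 0.629 (n = 47 cells, 0.543 without cell 52). The index of the summed members was 6.04, and 5.35 without cell 52. Indices of sums grow with the counts summed, so the excess of the squared coefficient of variation over counting error serves for a comparison. It was 0.0250 for the members, 0.0215 without cell 52, and 0.0225 for the sum of 33 spike-ins with 20 to 589 UMIs. Single spike-ins with totals near the members' sum had less, 0.0039 for ERCC-00113 with 7451 UMIs and 0.0041 for ERCC-00171 with 10194. It was 0.0594 for the KRAB members summed and 0.0252 for the members without a KRAB box. Both values include cell 52, and values without it were not computed. The KRAB sum had 1520 UMIs and the sum of 33 spike-ins 4853, so none of these spike-in references had a total like that of the KRAB members.

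The members' share was high where the share of ribosomal protein mRNA was low. Over 47 cells Pearson's r was -0.790 and Spearman's rho -0.721, and r was -0.728 without cell 52, -0.697 without cells 52 and 23, -0.779 in the 30 cells numbered up to 48 and -0.785 in the 17 numbered above. Both are shares of 1 total, and ribosomal protein mRNA takes 18.2% to 31.5% of it. When ribosomal protein and mitochondrial mRNA were left out of the total, r was -0.736, and -0.643 without cell 52. Other genes with 20 to 589 UMIs had an r of -0.849 with the ribosomal share, and -0.912 without cell 52. The members' share followed theirs with an r of 0.764, and 0.790 without cell 52. Taken as a share of those genes, the members had an r of -0.639 and a rho of -0.474 with the ribosomal share, with an r of -0.514 and a rho of -0.439 without cell 52 and an r of -0.469 without cells 52 and 23. With endogenous UMIs the members' share had an r of 0.206, 0.336 without cell 52, 0.354 in the cells up to 48 and -0.0284 in those above. With the mitochondrial share r was 0.335, and -0.153 without cell 52. These are descriptions of 47 cells that share 1 run, without a test, and the part of depth and of cell quality in them was not tested.

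**Figure D5:**
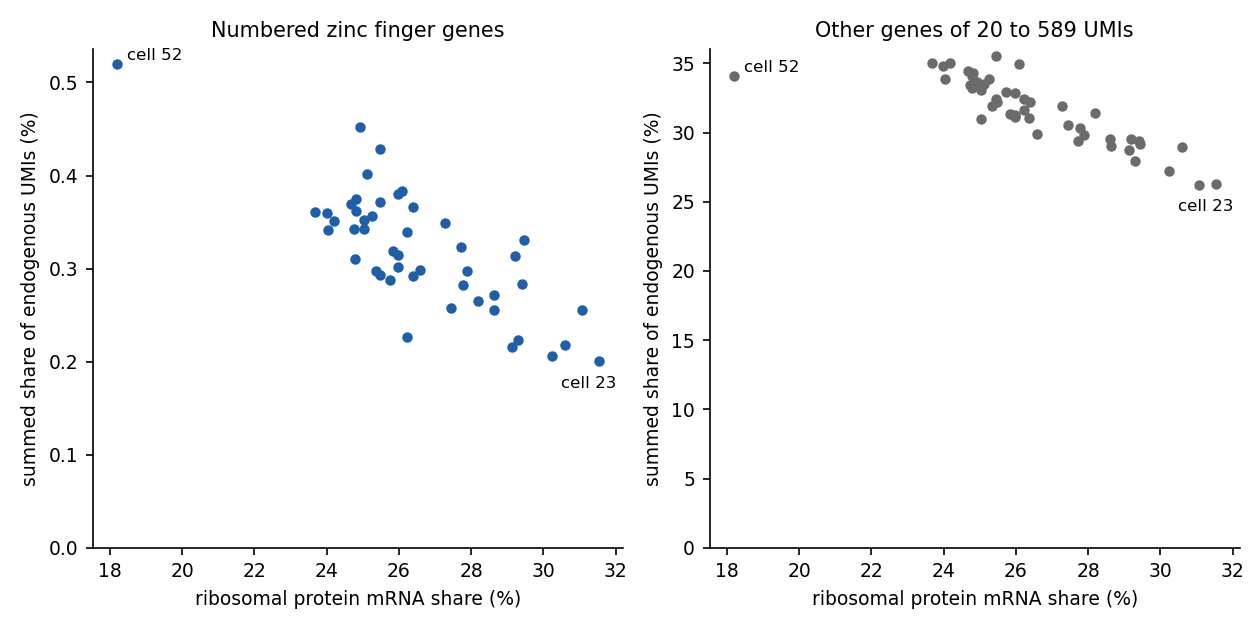
Summed share (%) of endogenous UMIs of the members (left) and of other genes with 20 to 589 UMIs (right) against the share of ribosomal protein mRNA (%), with 1 point per cell and cells 52 and 23 named. Both shares are lower in cells with more ribosomal protein mRNA, with r of -0.790 and -0.849, and cell 52 is highest only in the left panel.

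Correlations between single members were small. The median Spearman correlation over 9730 member pairs was 0.035, against 0.018 over all pairs of genes and 0.0087 over pairs of spike-ins. It was 0.053 among the 21 members with at least 100 UMIs, against 0.020 among all genes and 0.016 among spike-ins with 100 to 589 UMIs. The 5 highest among those 21 members were ZNF106 with ZNF22 at 0.34, ZNF106 with ZNF24 at 0.31, ZNF106 with ZNF146 at 0.29, ZNF32 with ZNF330 at 0.29 and the paralogs ZNF503 and ZNF703 at 0.28. The 5 lowest ran from -0.24, for ZNF271 with ZNF326, to -0.21, for ZNF32 with ZNF511. Correlations of this size between sparse counts are not findings. Members with the ZNF143 core in the promoter had a median of 0.10 over 55 pairs, against 0.031 for members without it, and members with the ETS core had 0.020, against 0.035 without.

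Zinc finger genes often lie in clusters, and 14 pairs of members are direct neighbours in the RefSeq annotation. Their median correlation was 0.050, with 10 of 14 above 0, beside a median of 0.035 and 58.8% above 0 for all member pairs. ZNF354A and ZNF354B had the highest, 0.40, and ZNF430 with ZNF714 the next, 0.16. Over all 9730 member pairs the 95th percentile was 0.28 and the highest correlation 0.59. ZNF354A had 55 UMIs in 20 cells and ZNF354B 23 UMIs in 12 cells. Of those 12 cells 8 also held ZNF354A, and 23 of the 47 cells held neither. Both proteins have a KRAB box and 13 finger motifs, and how reads that match paralogs were counted is not given in the sources used here, so the split of reads between them is uncertain. The same holds for ZNF585A and ZNF585B, which had 51 and 19 UMIs.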

How the data were processed

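The data are UMI counts of 47 HEK293 cells from a microfluidic circuit, with ERCC Spike-In Mix 1 and 18 PCR cycles per the labels' protocols. The deposited table holds whole-number counts per gene and cell, not normalized. Per the submitters' processing notes, cutadapt 1.2.1, STAR 2.4.0a and the builds hg19 and GRCh37 were used; the annotation, UMI collapsing, strand and treatment of multiple matches are not given in the sources used here. Every column matched 1 cell. A repeated header line (0.0602% of all values) was left out. Spike-ins were kept out of totals, and no doublet caller was run. The value of 1 listed marker is not reported here.

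Depth was 29325 to 138647 endogenous UMIs per cell. The index of dispersion is the chi-square of a gene's counts, given each cell's total, over its degrees of freedom; for spike-ins the spike-in totals were used. Correlations are Spearman's over log2(1 + UMIs scaled to the median total). Intervals of UMI shares cover counting error only. With 1 group of cells and no label that names separate cultures, no test across cells was made. The index was checked on simulated data.

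No protein table was at hand, so finger motifs (cysteines 2 to 4 apart, 12 residues to the histidines, these 3 to 5 apart), KRAB boxes and SCAN domains were searched in translated GENCODE 29 coding sequences. These patterns miss degenerate domains. Names, neighbours and promoters come from RefSeq on GRCh38.p14, another build than the counts.

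Members, lists and tests were chosen with earlier results of these data known. Named genes are the 20 members with the most UMIs, the 10 with the largest index, the 5 with the smallest among those with at least 100 UMIs, the 5 most correlated pairs of those, genes at 19 or 20 UMIs, those with the most and fewest finger motifs, and a list of known roles; others were chosen after their values were seen. Alternatives were other count minimums, scalings (spike-in totals, median of ratios, TMM from edgeR 4.0.16 in R 4.3.3), cells left out, thresholds and motif patterns. Python 3.11.15, numpy 2.4.6, pandas 2.3.3 and scipy 1.17.1 were used.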

Additional observations from a re-analysis of the deposited data

How the results depend on the processing

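The count of 4 members above the highest spike-in was 8 with a minimum of 10 UMIs, 9 with a minimum of 1 and 1 with a minimum of 50. It was 2 in the 17 cells numbered above 48, 11 against the 95th percentile of spike-ins, and 3 to 6 under 7 other settings. Spike-ins kept their minimum of 20 UMIs throughout. Over all genes the share was 3.21% as reported and 7.24% against the 95th percentile. It is not given for the other counts in this paragraph, so these cannot be read as particular to the members. The minimum also moved the summed share, 0.325% as reported, to 0.242% at 50 UMIs and 0.397% at 1; these changes follow from the number of members counted. The median pairwise correlation changed sign to -0.0150 with a minimum of 1 UMI and to -0.00033 with Pearson residuals, and was 0.0196 to 0.0664 under 9 other settings. The correlation of the summed share with endogenous UMIs was -0.0284 in the cells numbered above 48 and 0.158 to 0.354 under 7 other settings; the cause was not tested. The median index was 1.56 to 2.07 under 10 settings and the median detection ratio 0.754 to 0.837 under 7. The index was lowest without each gene's highest cell, and the ratio highest with cells thinned to the smallest total. Neither moved further than a yardstick built from leaving out 1 cell at a time and scaled to single cells, 1.15 and 0.146. So wide a yardstick says little about stability. Under stricter and looser patterns the shares of KRAB rows (18.8% and 19.6%) and of rows with 11 or more motifs (19.7% and 21.8%) moved little. The comparison there was a binomial interval that takes rows as independent. The correlation with the ribosomal protein share, added with its 7 settings after the data had been seen, ran from -0.785 to -0.639, the last for the share of genes of like abundance, for which Spearman's rho was -0.474. Leaving out 1 cell at a time gave 3 to 5 members above the highest spike-in, for example 3 without cell 2 or without cell 52 and 5 without cell 5.

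No paired analysis was possible because the labels name 1 group of cells. Depth limits most of the members. For the 79 with under 50 UMIs the index was a median of 1.26 times its value without the gene's highest cell, and it was over 1.5 times that value for 16 of them, ZNF627 the furthest.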

Other observations

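The name pattern left out 10 rows that begin with the same letters, antisense transcripts, pseudogenes and a readthrough among them. The most abundant was ZNF503-AS2, a transcript antisense to the ZNF503 locus, with 64 UMIs in 26 cells, beside 212 UMIs in 43 cells for ZNF503. ZNF674-AS1 had 30 UMIs in 15 cells. As the use of strand in counting is not given in the sources used here, reads of such a pair cannot be told apart where the transcripts overlap. The pseudogene ZNF37BP had 17 UMIs in 11 cells, ZNF337-AS1 had 14 in 7 cells, and ZNF192P1 and ZNF582-AS1 had 12 each in 7 cells.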
